A study of Rattus norvegicus with 24 samples.

Results

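The Rab GTPase genes were followed in rat forebrain 96 h after 1 dose of D-serine, an amino acid that acts as co-agonist at NMDA type glutamate receptors. A probe set was counted as a member where its only gene symbol in the platform annotation was Rab, digits and at most 1 letter, so that related names such as Rab11fip were left out. This gave 56 Rab genes on 97 probe sets, of 14217 genes and 31042 probe sets in all. Each gene was read at its probe set of highest mean. After the dimmest 40% of probe sets were set aside, 47 Rab genes and 78 of their probe sets were tested, beside 10205 genes and 18625 probe sets of the whole array.

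The animals were adult male Fisher 344 rats, aged 11 to 12 weeks. They received vehicle or 5, 20, 50, 200 or 500 mg/kg D-serine. Each of the 6 groups held 4 rats, and each rat gave 1 Affymetrix array, for 24 arrays in all. RNA came from a small piece of forebrain, and the labels do not say which part was cut. In such a bulk sample, fewer cells of a type and less RNA per cell cannot be told apart. Levels are log2(intensity + 16) after quantile normalization. Differences are on that scale, with the standard error of the limma fit, and a probe set passed where its Benjamini-Hochberg adjusted p was under 0.05.

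Rab proteins are small GTPases that switch between a GDP-bound form held in the cytosol and a GTP-bound form on a membrane. On the membrane they recruit motors, tethers and other effectors that give a transport vesicle its direction and its place of docking. Different Rabs mark different compartments: Rab3 proteins sit on synaptic vesicles, Rab5 on early endosomes, Rab4 and Rab11 on recycling endosomes, Rab7 on late endosomes, and Rab1, Rab2 and Rab6 act between the endoplasmic reticulum and the Golgi. In neurons these routes carry synaptic vesicles and move glutamate receptors to and from the synapse.

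RNA quality differed between the dose groups and is given here because it moved with several Rab probe sets. For Gapdh the array holds control probe sets at both ends of the transcript, and their log2 ratio (3′ over 5′) is higher where labelled RNA is shorter. Its mean was 0.82 ± 0.06 (SD, n = 4) in vehicle and, in ascending order of dose, 0.19 ± 0.07, 0.18 ± 0.04, 0.34 ± 0.17, 0.60 ± 0.21 and 0.75 ± 0.14. The 5, 20 and 50 mg/kg arrays all read below the lowest vehicle array. By exact permutation, two-sided, each of these 3 doses had p = 0.0286, which is the minimum for 4 arrays against 4 (adjusted p = 0.0476). The beta-actin ratio separated the same 3 groups from vehicle, with an equal exact permutation p. The array of 500 mg/kg replicate 4 stood apart from the rest, with a median correlation of 0.855 against 0.957 to 0.971 on the other arrays. Compared with the rest of its group, Camk2a, a forebrain neuron gene, stood at -4.10 on it, and Gabra6, a cerebellar granule cell gene, at 5.80. Cortical and hippocampal markers averaged 9.42 in vehicle, between 9.59 and 9.72 in the groups up to 200 mg/kg, and 8.86 at 500 mg/kg, or 9.49 without that array.

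Promoters of some of the genes treated below are shown for reference. Every GGGCGG (read on either strand, thus also CCGCCC) and every CACGTG is in capitals. GGGCGG is the core of a GC box and CACGTG is an E-box. Each stretch is 300 bases around the annotated start, from RefSeq on the GRCr8 assembly. Rab4a (chr19:68692831-68693130, + strand) and Rab18 (chr17:59639014-59639313, + strand) passed the test at their highest-mean probe set. Rab3a (chr16:18722224-18722523, - strand), Rab5a (chr9:6720877-6721176, + strand) and Rab11b (chr7:15236705-15237004, - strand) had another probe set that passed.
Rab4a: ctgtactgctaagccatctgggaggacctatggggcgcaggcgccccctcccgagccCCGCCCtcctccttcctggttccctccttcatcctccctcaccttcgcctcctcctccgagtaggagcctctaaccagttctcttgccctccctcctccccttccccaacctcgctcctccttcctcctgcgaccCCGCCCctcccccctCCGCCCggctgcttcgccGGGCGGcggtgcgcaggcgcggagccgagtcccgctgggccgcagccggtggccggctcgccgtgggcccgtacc
Rab18: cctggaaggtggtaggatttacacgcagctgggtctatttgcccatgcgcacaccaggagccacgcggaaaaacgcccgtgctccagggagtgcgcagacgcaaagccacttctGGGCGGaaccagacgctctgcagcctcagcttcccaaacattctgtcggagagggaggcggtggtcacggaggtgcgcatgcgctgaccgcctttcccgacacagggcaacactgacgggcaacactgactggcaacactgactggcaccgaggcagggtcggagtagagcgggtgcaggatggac
Rab3a: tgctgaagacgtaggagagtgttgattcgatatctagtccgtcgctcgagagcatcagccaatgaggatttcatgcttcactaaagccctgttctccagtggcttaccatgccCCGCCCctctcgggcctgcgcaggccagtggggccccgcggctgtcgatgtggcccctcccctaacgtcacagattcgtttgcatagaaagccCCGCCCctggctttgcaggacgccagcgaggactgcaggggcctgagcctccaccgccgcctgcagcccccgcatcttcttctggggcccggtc
Rab5a: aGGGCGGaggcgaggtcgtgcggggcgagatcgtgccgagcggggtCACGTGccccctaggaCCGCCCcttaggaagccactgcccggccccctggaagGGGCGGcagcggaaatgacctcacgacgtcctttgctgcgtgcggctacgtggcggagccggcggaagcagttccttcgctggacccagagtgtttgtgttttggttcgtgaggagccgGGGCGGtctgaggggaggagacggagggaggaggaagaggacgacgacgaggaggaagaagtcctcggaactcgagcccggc
Rab11b: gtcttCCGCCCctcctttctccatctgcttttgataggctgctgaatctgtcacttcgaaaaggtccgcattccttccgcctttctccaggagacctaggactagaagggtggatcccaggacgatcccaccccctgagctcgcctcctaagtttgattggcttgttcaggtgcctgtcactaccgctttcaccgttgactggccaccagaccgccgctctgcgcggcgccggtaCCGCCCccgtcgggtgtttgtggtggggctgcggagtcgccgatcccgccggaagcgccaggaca

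The table of promoters held 45 of the 56 Rab genes. GGGCGG stood in 36 of these 45 (80%), against 34.9% of all 27457 promoters. The 27457 were not limited to genes on the array or bright enough to test, so the sets are unlike. The Rab promoters were also richer in CG dinucleotides, with a median of 21, against 7 over all promoters. Rab4a and Rab5a each held 4 GGGCGG sites, Rab3a and Rab11b 2 each and Rab18 1. Other genes, not shown, also had another probe set that passed. Of these Rab6a held 0, Rab5b 1, Rab15 and Rab31 2 each and Rab6b 6, and Rab1b was not among the 45. CACGTG stood in 4 Rab promoters (8.89%), those of Rab5a, Rab20, Rab21 and Rab31, against 6.65% of all, and the cyclic AMP element TGACGTCA in that of Rab25 alone, against 1.91% of all. No Rab promoter held both TGACGTCA and CACGTG. These matches describe the letters in a window and say nothing of binding.

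At the highest-mean probe sets, Rab transcripts differed little between dose groups. Of the 47 Rab genes tested, 1 passed at 5 mg/kg, Rab4a, which fell, and 1 at 20 mg/kg, Rab18, which rose. Over all genes 3.24% passed at 5 mg/kg (1.83% higher and 1.41% lower) and 5.16% at 20 mg/kg (2.65% higher and 2.52% lower), so with all 24 arrays the Rab shares of 2.13% at each dose were not above the background. None of the 47 passed at 50, 200 or 500 mg/kg, where 0.402%, 0% and 0% of all genes did, and 4, 2 and 1 Rab genes had an unadjusted p under 0.05. The median Rab difference from vehicle was 0.05 at 5 mg/kg and 0.06 at 20 mg/kg, against -0.01 over all genes at each dose. The comparisons share the 4 vehicle arrays. Direction depended on scaling: in the values as deposited, where the median of all probe sets itself shifted by 0.19 and 0.37, 2 Rab genes passed at 5 mg/kg and 26 at 20 mg/kg, all of them higher (4.26% and 55.3%, against 3.34% and 38.3% of all genes). With the mean of a gene's probe sets in place of the highest-mean one, 5 and 8 Rab genes passed (10.6% and 17.0%, against 4.29% and 6.68% of all genes).

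**Figure D1:**
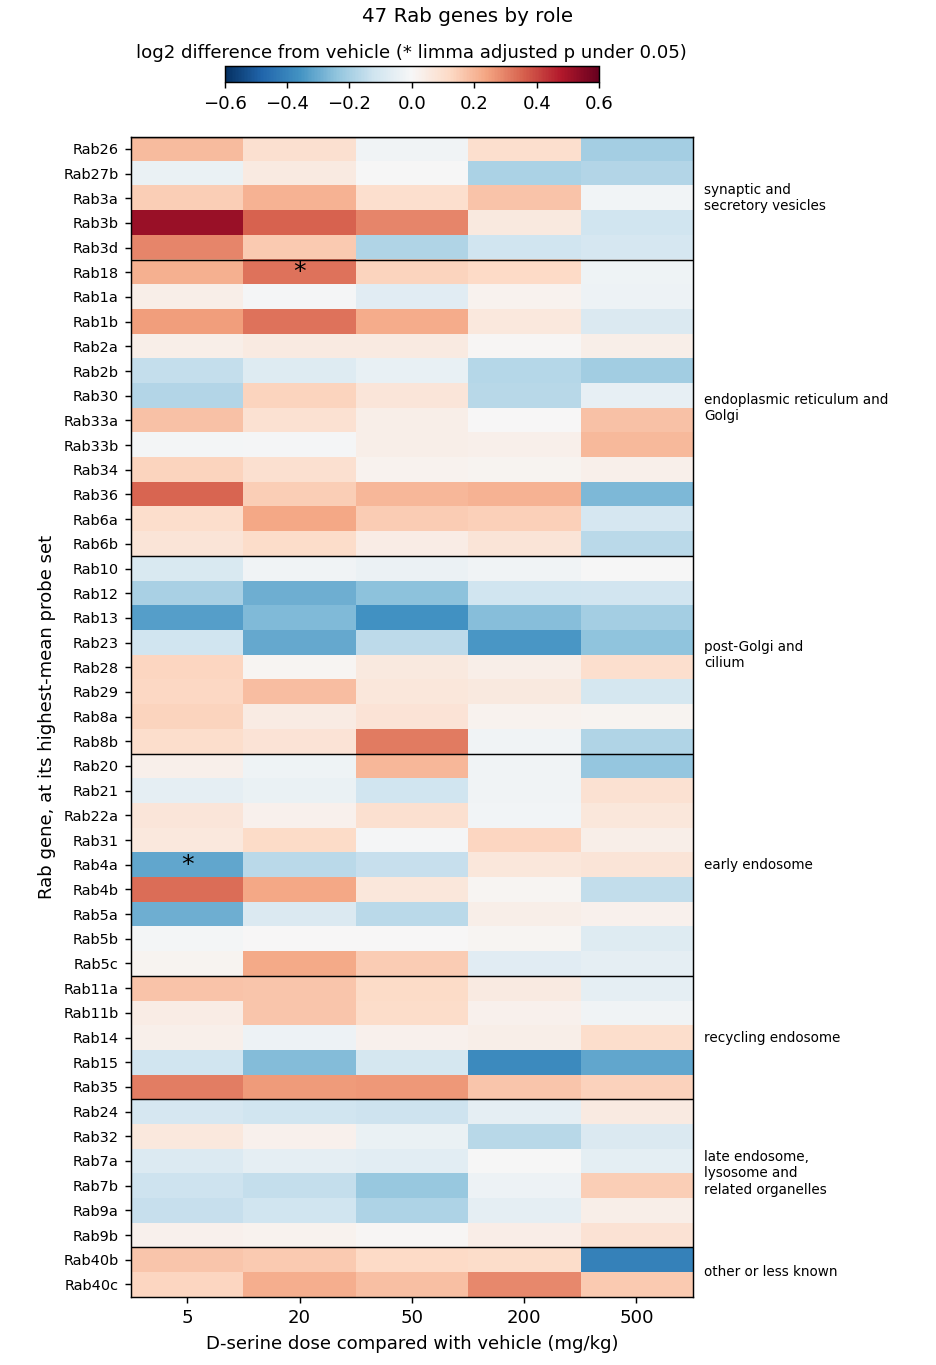
Log2 differences from vehicle of the 47 Rab genes tested (rows, grouped by role) at 5 doses of D-serine (columns, mg/kg); red is higher and blue lower than vehicle, and an asterisk marks a limma adjusted p under 0.05. Rab4a at 5 mg/kg and Rab18 at 20 mg/kg carry the only asterisks, and most other cells are pale.

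Rab4a, which returns receptors from early endosomes to the plasma membrane, was lower at the lowest dose. Its probe set 1370181_at read 8.30, 8.31, 8.36 and 8.39 on the 5 mg/kg arrays, against 8.51, 8.58, 8.73 and 8.80 on the vehicle arrays. All 4 dosed arrays thus lay below all 4 vehicle arrays. The level fell by 0.31 ± 0.08 on the log2 scale, 0.805 of vehicle (limma adjusted p = 0.0201). In the other groups, in ascending order of dose, it ran from 8.35 to 8.59, from 8.49 to 8.54, from 8.67 to 8.75 and from 8.59 to 8.94, and each of these ranges overlapped that of vehicle. Rab4a was also the 1 Rab gene that passed the F test over all 6 groups (limma adjusted p = 0.0109), which 3.37% of all genes passed, while 7 Rab genes had an unadjusted p under 0.05 in it. The call at 5 mg/kg was lost with arrays centred on their medians (a difference of -0.22, adjusted p = 0.203), in the values as deposited (-0.08, adjusted p = 0.806) and with only the 5 mg/kg and vehicle arrays in the fit (adjusted p = 0.0681). It was also lost without vehicle replicate 2 or 4 or 5 mg/kg replicate 3 or 4 (adjusted p = 0.0743, 0.0628, 0.0634 and 0.0527).

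Rab18, which acts at the endoplasmic reticulum and on lipid droplets, was higher at 20 mg/kg. Its probe set 1389292_at read 9.58, 9.72, 9.83 and 9.84 at 20 mg/kg, against 9.20, 9.45, 9.46 and 9.55 in vehicle, and these groups did not overlap. The rise was 0.33 ± 0.09 on the log2 scale, 1.25-fold (limma adjusted p = 0.0210). At 5 mg/kg the 4 arrays read 9.51, 9.58, 9.63 and 9.78, of which the lowest fell inside the vehicle range (difference 0.21 ± 0.09, adjusted p = 0.175). From 50 mg/kg upwards the ranges were 9.36 to 9.73, 9.47 to 9.58 and 9.31 to 9.47. The call at 20 mg/kg was lost without vehicle replicate 1 (adjusted p = 0.0929) or without 20 mg/kg replicate 2 or 4 (adjusted p = 0.0716 and 0.0607), and with only the 20 mg/kg and vehicle arrays in the fit (adjusted p = 0.0648).

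**Figure D2:**
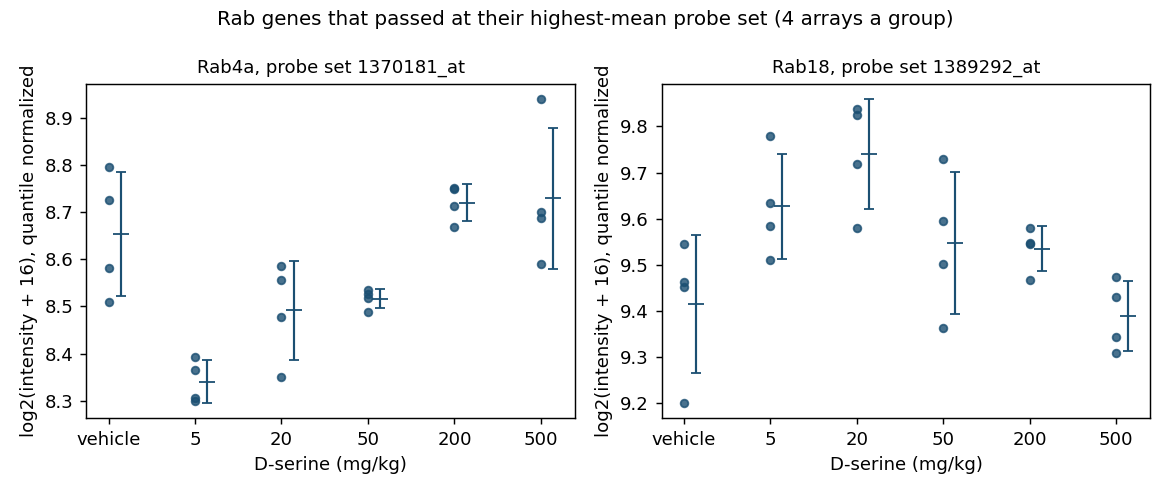
Level of Rab4a and of Rab18, log2(intensity + 16) after quantile normalization, on each array (points, 4 per group) by D-serine dose (vehicle and 5 to 500 mg/kg), with the group mean and SD beside them. The 5 mg/kg points of Rab4a lie below those of vehicle, and the 20 mg/kg points of Rab18 above them.

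Among the Rabs of synaptic and secretory vesicles, 5 of 8 genes were bright enough to test, and none of the 5 passed at any dose. Rab3a, the main Rab of synaptic vesicles, read 10.93, 11.03, 11.09 and 11.12 at 20 mg/kg at its highest-mean probe set, against 10.71, 10.75, 10.89 and 10.98 in vehicle. The groups overlapped, and the difference was 0.21 ± 0.10 (limma adjusted p = 0.226), with 0.15 ± 0.10 at 5 mg/kg (adjusted p = 0.452). The widest difference of any Rab gene at 5 mg/kg was that of Rab3b, a close relative of Rab3a. It read 8.34, 8.48, 8.64 and 8.64 at 5 mg/kg, against 7.71, 7.93, 8.10 and 8.27 in vehicle. The groups did not overlap, but the difference of 0.52 ± 0.21 did not pass (adjusted p = 0.165). Rab26, Rab27b and Rab3d, the other members tested, differed from vehicle by 0.19, -0.04 and 0.29 at 5 mg/kg, with adjusted p from 0.723 to 0.914.

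Of the Rabs of the endoplasmic reticulum and Golgi, 12 of 15 genes were tested, and Rab18 was the member that passed. Rab1a, which serves transport from the endoplasmic reticulum to the Golgi, differed from vehicle by 0.04 ± 0.08 and -0.01 ± 0.08 (5 and 20 mg/kg). Its close relative Rab1b differed by 0.25 ± 0.13 and 0.32 ± 0.13 (adjusted p = 0.329 and 0.152), at a probe set whose suffix marks probes that can also match other transcripts. Rab6a, which acts in traffic within and back from the Golgi, differed by 0.10 ± 0.12 and 0.23 ± 0.12 (adjusted p = 0.707 and 0.259). The remaining members, Rab2a, Rab2b, Rab6b, Rab30, Rab33a, Rab33b, Rab34 and Rab36, lay between -0.18 (Rab30) and 0.35 (Rab36) at 5 mg/kg.

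The 8 genes of post-Golgi traffic and the cilium were all tested, and none passed. Rab12, Rab13 and Rab23 lay below vehicle at both lower doses, by -0.19, -0.33 and -0.12 at 5 mg/kg and by -0.29, -0.26 and -0.31 at 20 mg/kg, none of which passed (adjusted p from 0.0835 to 0.769). Rab23 is known as a brake on Hedgehog signalling, and Rab13 acts at cell junctions. The exocytic Rab8a, Rab8b and Rab10 and the members Rab28 and Rab29 stayed between -0.09 and 0.13 at 5 mg/kg.

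In the early endosome group 9 of 10 genes were tested, and Rab4a was the 1 that passed. Rab5a, which drives the fusion of early endosomes, read 9.45, 9.47, 9.47 and 9.48 at 5 mg/kg at its highest-mean probe set, against 9.60, 9.64, 9.86 and 9.94 in vehicle. Every 5 mg/kg array lay below every vehicle array, but the difference of -0.29 ± 0.10 did not pass (limma adjusted p = 0.0815), except without the outlying 500 mg/kg array or 50 mg/kg replicate 1 (adjusted p = 0.0400 and 0.0471). At 20 mg/kg the difference was -0.08 ± 0.10. Its paralogs Rab5b and Rab5c differed by -0.01 and 0.02 at 5 mg/kg. Rab4b, the paralog of Rab4a, lay on the other side of vehicle, at 0.34 ± 0.16 (adjusted p = 0.257). Rab20, Rab21, Rab22a and Rab31 lay between -0.05 and 0.07 at 5 mg/kg.

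Of the Rabs of recycling endosomes, 5 of 6 genes were tested and none passed. Rab11a, which controls the return of cargo through the recycling endosome, read 9.04, 9.13, 9.24 and 9.24 at 20 mg/kg, against 8.83, 8.96, 9.06 and 9.11 in vehicle. The groups overlapped, and the difference was 0.17 ± 0.09 (limma adjusted p = 0.271), as it was at 5 mg/kg (0.17 ± 0.09, adjusted p = 0.305). Rab35, which sorts cargo into a fast recycling route, read 7.65, 7.69, 7.72 and 7.76 at 5 mg/kg, against 7.34, 7.37, 7.40 and 7.47 in vehicle. These groups did not overlap, yet the difference of 0.31 ± 0.09 stayed just outside the threshold (adjusted p = 0.0580). Rab11b, Rab14 and Rab15 differed by 0.05, 0.03 and -0.12 at 5 mg/kg.

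The Rabs of late endosomes, lysosomes and related organelles lay close to vehicle. Of 7 genes 6 were tested, none passed, and all 6 lay between -0.14 and 0.06 at 5 mg/kg. Rab7a, which directs late endosomes to lysosomes, read 10.38, 10.47, 10.53 and 10.64 at 20 mg/kg, against 10.51, 10.55, 10.58 and 10.59 in vehicle. The arrays were intermingled, and the difference was -0.05 ± 0.06 (limma adjusted p = 0.683). Rab7b, Rab9a, Rab9b, Rab24 and Rab32 differed by -0.14, -0.12, 0.02, -0.12 and 0.02 at 20 mg/kg. The remaining pair, Rab40b and Rab40c, whose products bind ubiquitin ligase subunits, differed by 0.17 and 0.13 at 5 mg/kg and did not pass.

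The other 9 Rab genes were too dim to test: Rab3c, Rab17, Rab19, Rab25, Rab27a, Rab37, Rab38, Rab39a and Rab43. Their mean levels ran from 4.42 for Rab39a to 5.79 for Rab25, under the 5.98 at which the filter stood. Rab17 and Rab25 are known mainly from epithelia and Rab38 from pigment cells. The dimmest members that were kept were Rab3d, at 6.09, and Rab32, at 6.18. A difference in a dim probe set is understated on this scale.

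A different picture came from the other probe sets of the same genes, a set of counts chosen after earlier results were known. Of the Rab genes tested, 23 had at least 1 further probe set bright enough, 31 in all. At 5 mg/kg 8 of these 31 rose and none fell, and at 20 mg/kg 10 rose and none fell. The share that rose was 25.8% at the lower of these doses and 32.3% at the higher, against 11.3% and 15.6% of the 3459 such probe sets on the whole array, of which 1.85% and 3.56% fell. The probe sets that rose belonged to Rab3a, Rab5a, Rab5b, Rab6a, Rab11b and Rab1b at both doses, to Rab15 at 5 mg/kg, and to Rab31 and Rab6b at 20 mg/kg. At none of these 9 genes did the highest-mean probe set pass. The median over the 31 was 0.35 and 0.31, against 0.07 and 0.09 over all such probe sets. In the F test over all 6 groups 8 of the 31 passed (25.8%, against 14.3% of all).

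**Figure D3:**
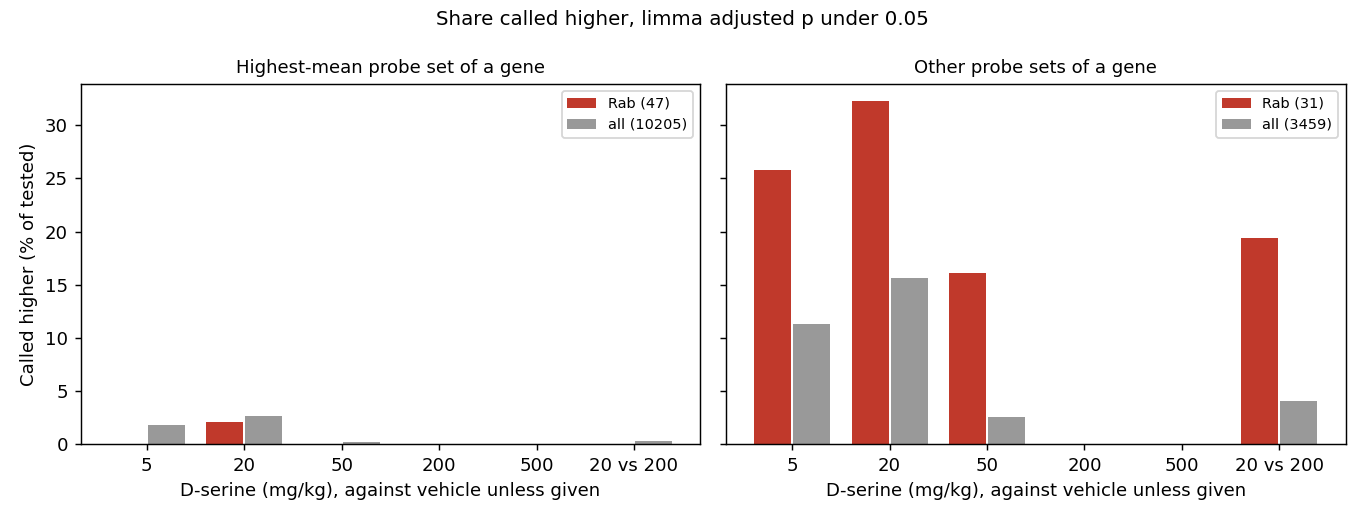
Share of Rab features (red) and of all features (grey) called higher, in percent of those tested, for each comparison, at the highest-mean probe set of a gene (left) and at other probe sets of genes (right). On the left no Rab bar stands above its grey one, both being at 0% for 200 and 500 mg/kg, and on the right the Rab bars reach 25.8% and 32.3% for 5 and 20 mg/kg, against 11.3% and 15.6%.

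Rab5a gave the widest split between its probe sets. Its other probe set, 1387641_at, read 8.07, 8.40, 8.48 and 8.67 at 5 mg/kg, against 7.40, 7.46, 7.56 and 7.60 in vehicle. At 20 mg/kg it read 8.51, 8.51, 8.59 and 8.64. All arrays of both doses lay above all vehicle arrays, and it rose 1.86-fold at 5 mg/kg (0.90 ± 0.12, limma adjusted p = 0.000156) and 2.08-fold at 20 mg/kg (1.06 ± 0.12, adjusted p = 2.03e-05). At 50 mg/kg it read 7.90, 8.30, 8.40 and 8.46, a rise of 0.76 ± 0.12 (adjusted p = 0.00576). At 200 mg/kg, with 7.89 to 8.17, and at 500 mg/kg, with 7.77 to 7.99, the arrays still lay above those of vehicle, by 0.52 and 0.35, but did not pass (adjusted p = 0.667 and 0.656). The highest-mean probe set, by contrast, lay on average below vehicle at the 3 lower doses.

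Rab3a, the Rab of synaptic vesicles, also rose at its other probe set, 1369816_at. It read 10.01, 10.02, 10.15 and 10.25 at 5 mg/kg, against 9.31, 9.41, 9.47 and 9.64 in vehicle. At 20 mg/kg it read 10.05, 10.17, 10.20 and 10.27. No array of either dose overlapped vehicle, with rises of 0.65 ± 0.11 (1.57-fold, limma adjusted p = 0.00167) and 0.72 ± 0.11 (1.64-fold, adjusted p = 0.000436). At 50 mg/kg the difference was 0.42 ± 0.11 (adjusted p = 0.0809), and at 500 mg/kg it was -0.03.

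Rab11b, a recycling endosome Rab abundant in brain, rose at probe set 1398825_at. It read 8.68, 8.79, 8.81 and 8.82 at 5 mg/kg, against 7.82, 7.92, 7.99 and 8.19 in vehicle, with no overlap. The rises at 5, 20 and 50 mg/kg were 0.79 ± 0.12, 0.85 ± 0.12 and 0.64 ± 0.12 (limma adjusted p = 0.0006, 0.000228 and 0.0147). At 200 and 500 mg/kg it stood at 0.10 and -0.07. Rab6a, at probe set 1371103_at, read 9.07, 9.29, 9.47 and 9.49 at 20 mg/kg, against 8.32, 8.44, 8.53 and 8.56 in vehicle, again with no overlap. It rose by 0.70 ± 0.14, 0.87 ± 0.14 and 0.60 ± 0.14 at 5, 20 and 50 mg/kg (adjusted p = 0.00466, 0.000566 and 0.0441). The 50 mg/kg call of Rab6a was lost with no filter, with median centring, in the values as deposited and with only the arrays compared. It was also lost without any 1 of the vehicle arrays, 50 mg/kg replicate 2, 3 or 4, or several arrays of other groups (adjusted p from 0.0520 to 0.163). That of Rab11b was lost without vehicle replicate 1 or 4 or 50 mg/kg replicate 4 (adjusted p from 0.0515 to 0.0791).

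**Figure D4:**
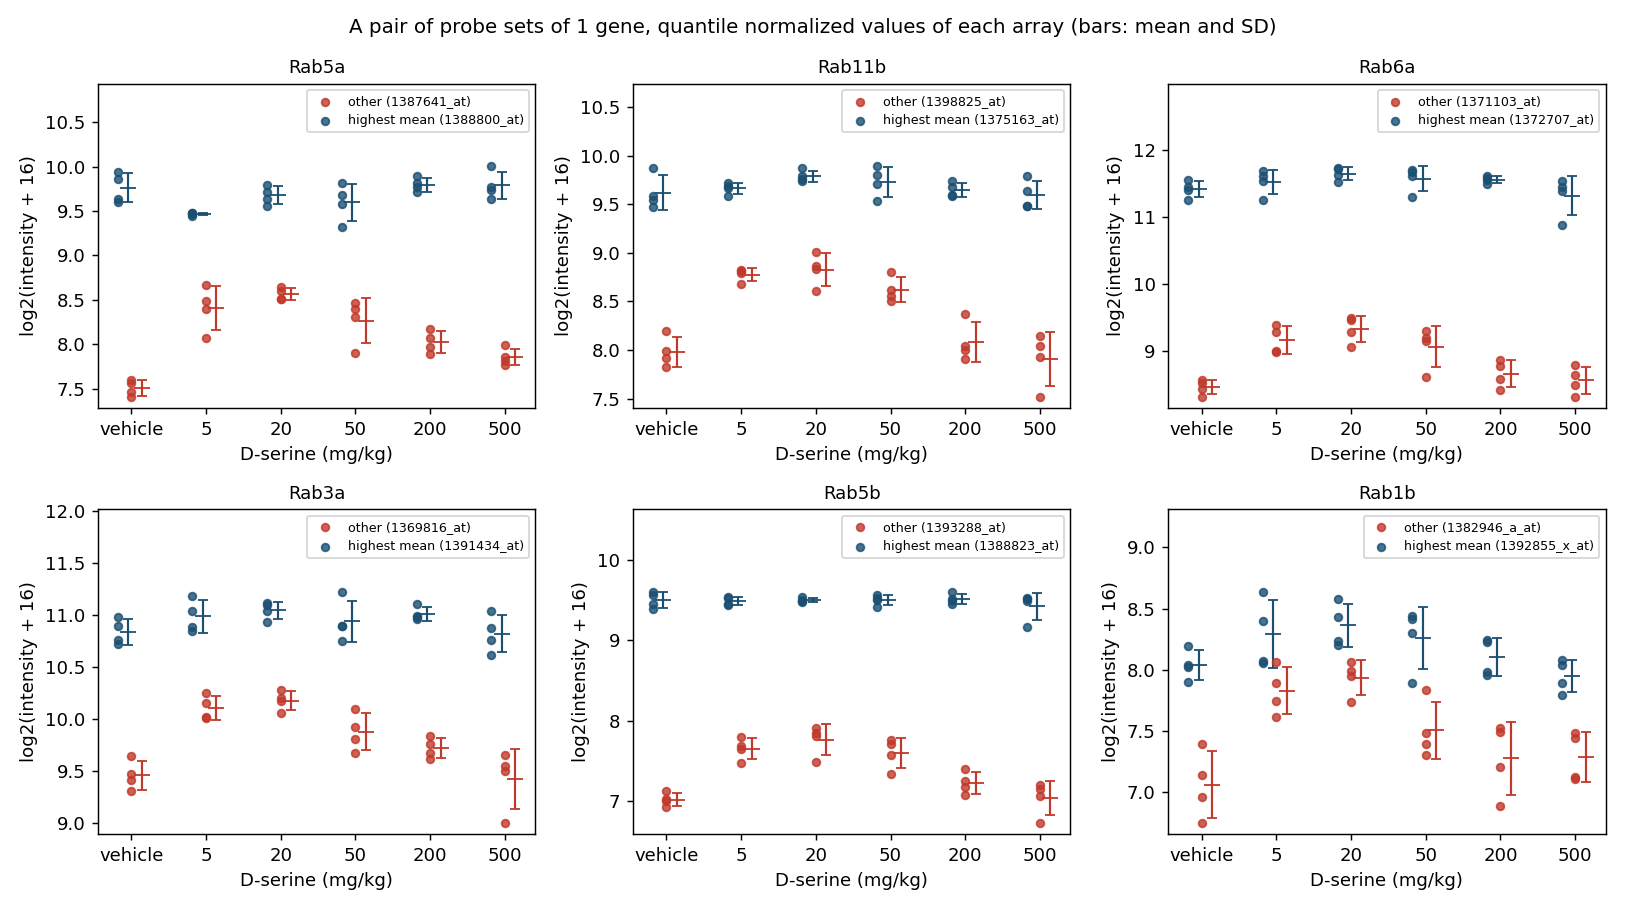
Levels of a pair of probe sets of each of 6 Rab genes, log2(intensity + 16), on each array (points, 4 per group) by D-serine dose in mg/kg, with the group mean and SD; red is another probe set and blue the highest-mean one, and the heights of different probe sets cannot be compared. The red points are higher at 5 and 20 mg/kg than in vehicle, as in Rab5a, which rose by 0.90 and 1.06, while the blue points stay near their vehicle level.

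Rab5b, the paralog of Rab5a on early endosomes, had 2 further probe sets that rose. Probe set 1393288_at read 7.49, 7.81, 7.84 and 7.92 at 20 mg/kg, against 6.92 to 7.12 in vehicle, and did not overlap. Its rises were 0.63 ± 0.12, 0.75 ± 0.12 and 0.58 ± 0.12 at 5, 20 and 50 mg/kg (limma adjusted p = 0.00238, 0.000412 and 0.0180). Probe set 1399153_at rose by 0.55 ± 0.11 at 20 mg/kg and 0.47 ± 0.11 at 50 mg/kg (adjusted p = 0.00328 and 0.0485), and differed by 0.31 at 5 mg/kg (adjusted p = 0.123). At 50 mg/kg the call of 1393288_at was lost without vehicle replicate 1 or 4 or 50 mg/kg replicate 2, 3 or 4. It was also lost with only the arrays compared (adjusted p from 0.0502 to 0.0848 in these refits). The 50 mg/kg call of 1399153_at was lost with no filter, median centring, the values as deposited and only the arrays compared. It was also lost without many single arrays (adjusted p from 0.0528 to 0.1775). A further probe set of the gene, 1378035_at, did not follow, with -0.17 at 20 mg/kg.

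Rab1b rose at 2 of its 3 other probe sets. Probe set 1382946_a_at read 7.61, 7.74, 7.89 and 8.06 at 5 mg/kg, against 6.75, 6.96, 7.14 and 7.39 in vehicle. The groups did not overlap, and the rise was 0.77 ± 0.16 at 5 mg/kg and 0.88 ± 0.16 at 20 mg/kg (limma adjusted p = 0.00466 and 0.00110). Probe set 1398982_at rose by 0.46 ± 0.13 and 0.51 ± 0.13 (adjusted p = 0.0410 and 0.0177), and at 5 mg/kg its lowest arrays reached into the vehicle range. Both rises of 1398982_at were lost without vehicle replicate 2 or 4, at either dose (adjusted p from 0.0516 to 0.153). That at 5 mg/kg was also lost without 5 mg/kg replicate 3 or 4 or 50 mg/kg replicate 2, with no filter and with only the arrays compared (adjusted p from 0.0502 to 0.138), and that at 20 mg/kg without 20 mg/kg replicate 2 (adjusted p = 0.0575). Rab1b and Rab1a are close relatives, as are the Rab5 paralogs, and where a probe set's suffix marks shared probes the signal could belong in part to a relative. For Rab1b the suffix of probes that can match other transcripts is on 1392855_x_at, its highest-mean probe set. The Rab5 probe sets carry no such suffix.

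Rab15, a Rab of early and recycling endosomes found mostly in nerve tissue, rose at probe set 1370758_at at 5 mg/kg. It read 6.87, 7.17, 7.66 and 7.92, against 5.86, 6.42, 6.60 and 6.67 in vehicle, a rise of 1.02 ± 0.25 with no overlap (limma adjusted p = 0.0160). The call was lost without vehicle replicate 2 or 5 mg/kg replicate 2 or 3 (adjusted p from 0.0615 to 0.0711). At 20 mg/kg the difference was 0.72 ± 0.25 (adjusted p = 0.0737). Rab31, a Rab of the trans-Golgi and early endosomes, rose at probe set 1370780_at at 20 mg/kg by 0.52 ± 0.16 (adjusted p = 0.0392). Rab6b, the neuronal paralog of Rab6a, rose at probe set 1392478_at at 20 mg/kg by 0.41 ± 0.12 (adjusted p = 0.0329), with 8.83 to 9.27 against 8.63 to 8.69 in vehicle. Either call was lost without any 1 of 6 arrays of its groups, among them 20 mg/kg replicates 2 and 3 and vehicle replicates 1, 2 and 4 for both probe sets. That of Rab31 was also lost with no filter (limma adjusted p = 0.0679).

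Whether the probe sets of 1 gene differed from each other was tested directly, a test chosen after earlier results were known. For each of the 31 Rab pairs the log2 value of the highest-mean probe set was taken from that of the other on every array, and the difference was fitted in limma beside all 3459 pairs of the array. At 5 mg/kg the other probe set was higher relative to its partner in 9 Rab pairs and lower in none. At 20 mg/kg it was higher in 10 and lower in 1, that of Rab11a (-0.27 ± 0.10, adjusted p = 0.0474). At 5 mg/kg 29.0% of the Rab pairs were higher, against 17.1% of all pairs, of which 3.09% were lower. At 20 mg/kg 32.3% were higher, against 20.3% of all pairs, of which 3.96% were lower. In the F test over all groups 11 Rab pairs passed (35.5%, against 19.7% of all). Probe sets of 1 gene thus disagreed across the whole array, not in the Rab genes alone. The widest Rab split was that of Rab5a, 1.19 ± 0.14 and 1.14 ± 0.14 at these doses (adjusted p = 1.57e-05 and 1.55e-05). Rab7a, whose highest-mean probe set stood at -0.08 at 5 mg/kg, differed from its other probe set by 0.46 ± 0.12 (adjusted p = 0.00651), although neither probe set passed by itself. The split was 0.50 ± 0.10 for Rab3a and 0.75 ± 0.17 for Rab11b at 5 mg/kg (adjusted p = 0.00173 and 0.00352).

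**Figure D5:**
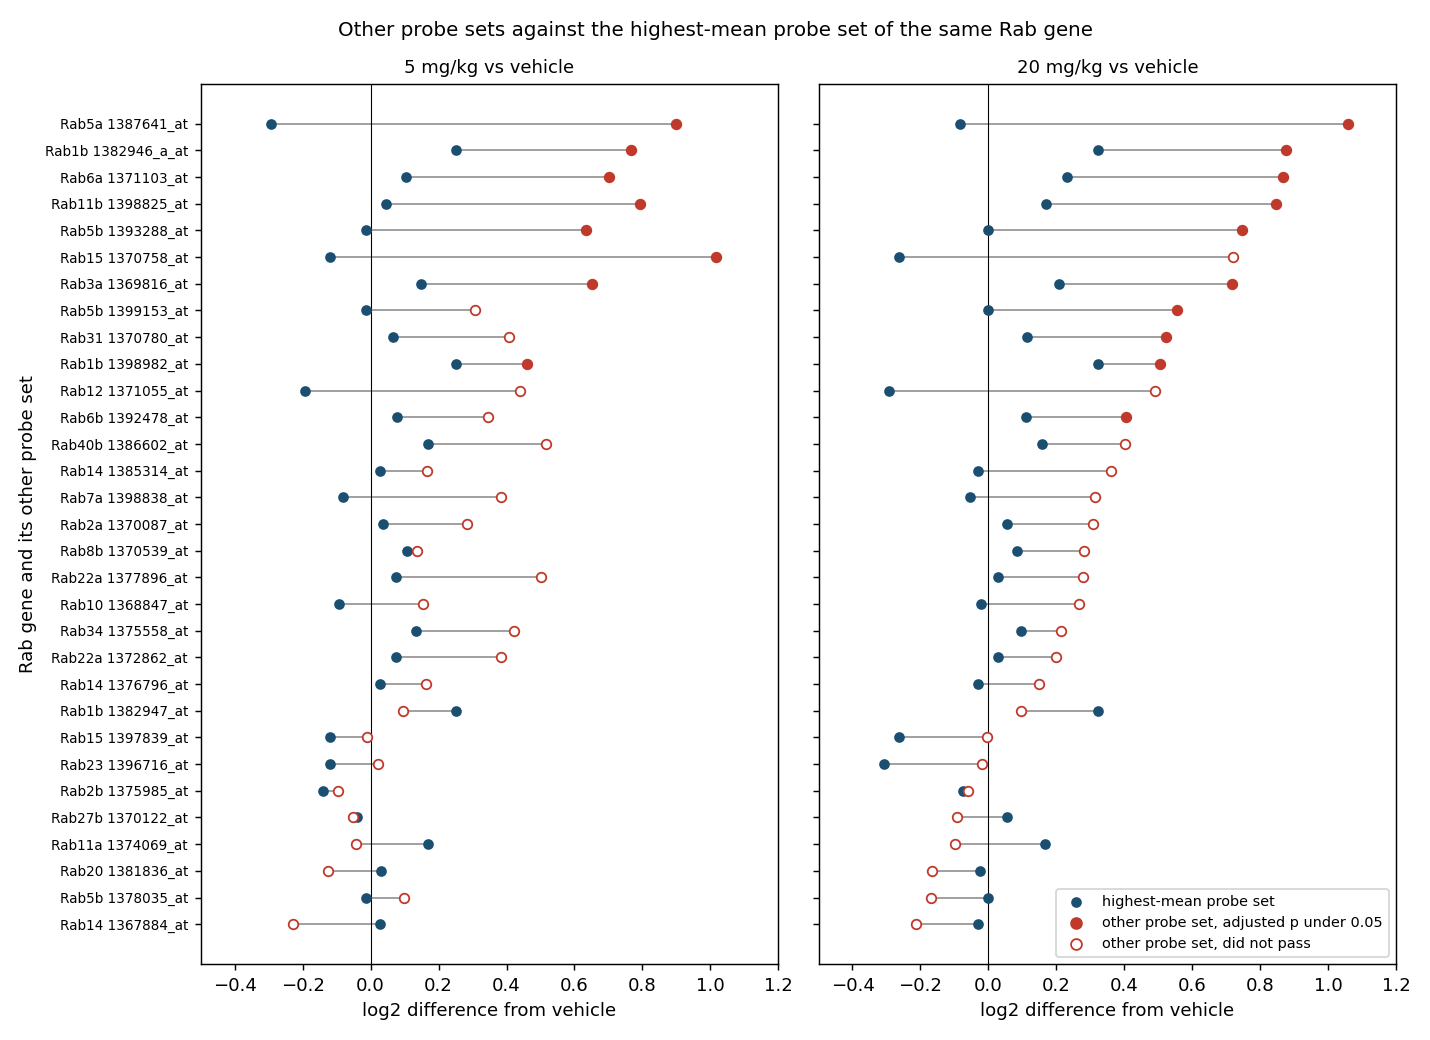
Log2 difference from vehicle (horizontal axis) of each of 31 other Rab probe sets (red, filled where the limma adjusted p was under 0.05) and of the highest-mean probe set of the same gene (blue), at 5 mg/kg (left) and 20 mg/kg (right). Most red points lie to the right of their blue partners, most of all in Rab5a, where they stand at 0.90 and -0.29 at 5 mg/kg.

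The rises at these probe sets went with the RNA quality ratios: the 3 groups in which they passed, 5, 20 and 50 mg/kg, are those whose Gapdh and beta-actin ratios lay below vehicle. With the Gapdh ratio as a covariate in the limma fit, none of the 78 Rab probe sets passed in any comparison, at the highest-mean probe sets or the others. The loss was not particular to Rab genes. Over the whole array, probe sets with an unadjusted p under 0.05 went from 3515 to 1234 at 5 mg/kg. At 20 mg/kg they went from 4055 to 1195. The difference of Rab5a at 1387641_at became 0.34 ± 0.18 and 0.49 ± 0.18 at 5 and 20 mg/kg (adjusted p = 0.752 and 0.767). That of Rab6a at 1371103_at became -0.07 ± 0.19 and 0.09 ± 0.20, and that of Rab18 at 20 mg/kg 0.13 ± 0.16. Other values depended on the outlying 500 mg/kg array. Rab3a at 1369816_at stood at 0.16 ± 0.18 and 0.21 ± 0.18 with all arrays, and at 0.34 ± 0.17 and 0.40 ± 0.17 without that array. Rab4a at 5 mg/kg stood at -0.14 ± 0.14 with all arrays, and at -0.25 ± 0.14 without it. Some differences did not shrink: that of Rab31 at 1370780_at at 20 mg/kg was 0.54 ± 0.31, or 0.72 ± 0.32 without the outlying array, and that of Rab5a at its highest-mean probe set at 5 mg/kg was -0.29 ± 0.19, or -0.44 ± 0.18. With the covariate the median standard error over all probe sets at 5 mg/kg was 0.26, with or without the outlying array. It was 0.14 in the fit without the covariate. Dose and RNA quality cannot be told apart at 5, 20 and 50 mg/kg, where the Gapdh ratios did not overlap those of vehicle.

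At 50 mg/kg 5 of the 31 other probe sets rose (16.1%, against 2.54% of all such probe sets), those of Rab5a, Rab11b and Rab6a and the pair of Rab5b. This count fell to 1 without vehicle replicate 1 or 4 or without 50 mg/kg replicate 4, and to 2 without 50 mg/kg replicate 2 or 3. It was 3 without vehicle replicate 3, 5 mg/kg replicate 2, 20 mg/kg replicate 1, 2 or 3, 200 mg/kg replicate 2 or 500 mg/kg replicate 2. In the pair test the split of Rab5a was 0.92 ± 0.14 (limma adjusted p = 0.00210), and 4 Rab pairs were higher (12.9%, against 7.46% of all pairs). At 200 mg/kg none of the 31 passed (limma, 2 with an unadjusted p under 0.05), as over all such probe sets (0%). At 500 mg/kg none passed either (2 with an unadjusted p under 0.05), against 0.0289% of all. No Rab pair passed at 200 or 500 mg/kg (1 and 2 with an unadjusted p under 0.05), against 0.0289% of all pairs at each dose.

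The groups of 20 and 200 mg/kg were also set against each other, which leaves out the shared vehicle arrays. No Rab gene passed at its highest-mean probe set (limma, 4 with an unadjusted p under 0.05), against 0.529% of all genes. Of the other probe sets 6 were higher at 20 mg/kg (19.4%, against 4.08% of all such probe sets), those of Rab3a, Rab5a, Rab5b, Rab6a, Rab11b and Rab1b. Rab11b read 8.60, 8.83, 8.87 and 9.01 at 20 mg/kg, against 7.91 to 8.37 at 200 mg/kg, and all arrays were apart. The difference was 0.74 ± 0.12 (adjusted p = 0.00302), and that of Rab5a was 0.54 ± 0.12 (adjusted p = 0.0199). In the pair test 6 Rab pairs were higher at 20 mg/kg (19.4%, against 8.41% of all pairs). The count of 6 probe sets fell to 1 without 20 mg/kg replicate 2 or 3 or 200 mg/kg replicate 1 or 2, and to 3 without 20 mg/kg replicate 1. The mean Gapdh ratio differed here too, at 0.18 for 20 mg/kg and 0.60 for 200 mg/kg.

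Rab genes were also read on the outlying 500 mg/kg array, without the same count over all genes. Over the 47 Rab genes tested, 29 read lower on that array than the mean of the other 3, with a range of -2.27 to 0.77. Rab40b read -2.27 units from it, Rab3d -1.97, Rab26 -1.73, Rab36 -1.70 and Rab15 -1.56. On the other side were Rab33b, at 0.77, and the dim Rab37, at 2.15. Rab3d and Rab26 act on secretory vesicles. With or without this array no Rab gene and no other Rab probe set passed at 500 mg/kg. Without it 4 Rab genes passed at 5 mg/kg and 2 at 20 mg/kg, with the spread estimated over all arrays (8.51% and 4.26%, against 6.06% and 8.81% of all genes). The count at 5 mg/kg was 2 (4.26%) without 50 mg/kg replicate 1, 200 mg/kg replicate 3 or 500 mg/kg replicate 1, against 3.54%, 3.39% and 3.03% of all genes.

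Regulators and effectors of Rab proteins, taken from a list of 101 genes, were read for the same comparisons. Of the 85 on the array 76 were tested. At 5 mg/kg 1 of these fell and none rose, against 1.41% and 1.83% of all genes. The 20 mg/kg group had 4 that rose and 2 that fell, against 2.65% and 2.52% of all genes. None passed at 50, 200 or 500 mg/kg. The 76 had a median difference of 0.00 at each of 5 and 20 mg/kg.

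Myo5a fell at both doses. This myosin carries organelles bound by Rab27 and Rab11 effectors. It read 8.57, 8.61, 8.75 and 8.82 at 5 mg/kg and from 8.46 to 8.60 at 20 mg/kg, against 8.95, 9.07, 9.12 and 9.16 in vehicle. No dosed array of either group overlapped vehicle, and the differences were -0.39 ± 0.11 and -0.53 ± 0.11 (limma adjusted p = 0.0463 and 0.00444). Exoc6, an exocyst subunit, rose by 0.52 ± 0.13 at 20 mg/kg (adjusted p = 0.0159), with 7.48 to 7.86 at 20 mg/kg against 6.86 to 7.30 in vehicle. Chm, the escort protein that presents Rabs for prenylation, rose by 0.40 ± 0.12 (adjusted p = 0.0403). Gcc2, a Golgi tether, rose by 0.34 ± 0.10 (adjusted p = 0.0319), and Vps41, a subunit of the late endosome tether that Rab7 engages, by 0.33 ± 0.10 (adjusted p = 0.0455). Evi5, which is related to GTPase activating proteins of Rabs, fell by 0.36 on the log2 scale (adjusted p = 0.0495). These are the 6 list members with the smallest p in the F test over all groups. Exoc6 and Myo5a were the 2 of 76 that passed it (limma adjusted p = 0.0321 and 0.0389), and 3.37% of all genes passed. Chm, Gcc2, Vps41 and Evi5 did not pass it (adjusted p from 0.0966 to 0.176). The alternative fits were read for Rab probe sets only. How far these calls depend on single arrays, on scaling or on the Gapdh ratio was not tested. They were read at the highest-mean probe set of each gene alone.

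Marker lists of other cell types were read beside these results. The 5 thalamic neuron markers had a median difference of -0.60 and -0.70 (5 and 20 mg/kg), and all 5 lay below vehicle at each dose. They also lay below it at 50, 200 and 500 mg/kg, with medians of -0.21, -0.48 and -0.59. The 7 markers of myelinating oligodendrocytes had -0.55 and -0.61 at 5 and 20 mg/kg, again with all 7 below vehicle. At 50, 200 and 500 mg/kg they had -0.09, -0.09 and -0.12, with 0, 0 and 1 above vehicle. None of these 12 markers passed by itself. Between arrays the mean level of the thalamic list ran from 7.30 to 9.49 in vehicle, from 7.05 to 7.44 at 5 mg/kg and from 7.02 to 7.32 at 20 mg/kg. At 5 and 20 mg/kg the median difference was 0.08 and 0.14 for 4 cortical and hippocampal markers, of which 1 rose at each dose. It was -0.22 and -0.23 for 5 astrocyte markers and 0.12 and 0.14 for 5 microglia markers, none of which passed. The 6 striatal neuron markers had -0.13 and -0.40, and -1.03, -0.23 and -0.18 at 50, 200 and 500 mg/kg. All 6 lay below vehicle at each dose from 20 mg/kg upwards, with the outlying 500 mg/kg array included. The mean level of this striatal list was 8.42 in vehicle and 8.23 at 500 mg/kg, but 8.69 at 500 mg/kg without that array. At 5 and 20 mg/kg the median difference was -0.26 and -0.30 for 3 choroid plexus markers and -0.09 and -0.10 for 4 endothelial markers. It was 0.06 and 0.11 for 5 cerebellar markers, and none of the striatal, choroid plexus, endothelial or cerebellar markers passed. The part of the cell mixture in the Rab values was not tested.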

How the data were processed

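Arrays of 24 rats were grouped by dose as the labels give it. The deposited file holds 1 intensity per probe set on a linear scale. GCOS, which reads and summarizes Affymetrix scans, made it, per the submitters' processing notes. Its settings and scaling target and any batch or scan date were not given in the sources used here. Signals were quantile normalized and taken as log2(intensity + 16), which understates changes of dim probe sets. The 57 controls and the dimmest 40% of the rest were left out. One limma model (version 3.58.1, R 4.3.3) held the 6 groups, with lmFit, eBayes with an intensity trend, and Benjamini-Hochberg adjustment over 18625 probe sets. The fit was tested on simulated data. Gene symbols came from the platform annotation and were updated through RefSeq gene IDs, which changed 0 Rab symbols; 3 probe sets with several symbols, 1 of them a Rab gene, were not used.

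The Rab members, the lists of regulators and markers and the tests were chosen with earlier results of these data known. Named genes were those that passed, Rab3a, Rab5a, Rab7a and Rab11a whatever their values, probe sets that disagreed within a gene, and the 6 regulators with the smallest F test p; Rab3b, Rab35 and the other members named beside them were picked after their values were seen. Counts over other probe sets, the test of pairs and the covariate fit without 500 mg/kg replicate 4 were added after the data were seen. Labels name a separate animal for each array, so replicates are biological and unpaired. Alternatives were other filters, pseudocounts of 1 and 64, median centring, the values as deposited, robust moderation, only the arrays compared, the mean of a gene's probe sets, the Gapdh ratio as covariate, and each array left out in turn. The number of arrays limits the precision, with a median standard error of 0.14 for a log2 difference.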

Additional observations from a re-analysis of the deposited data

Results flagged for a closer look

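In 3 of 102 groups of 4 arrays looked at for the named probe sets, 1 array lay far from the other 3 by Dixon's 95% criterion; chance flags about 1 group in 20. Rab3a at its highest-mean probe set read 11.1 on 200 mg/kg replicate 3, against 10.96 to 10.98 on the other 3 arrays of that group. Rab6b at probe set 1392478_at read 8.77 on 50 mg/kg replicate 1, against 8.93 to 8.95, and 8.14 on 500 mg/kg replicate 4, the array that stood apart throughout, against 8.69 to 8.79. None of these groups had a Rab6b or Rab3a call at the probe set concerned.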

How the results depend on the processing

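Counts of Rab genes, of other Rab probe sets and of Rab pairs were refitted under each alternative. With the Gapdh ratio as covariate, in 24 arrays or in 23, every count that was above 0 became 0. Over the whole array, probe sets with an unadjusted limma p under 0.05 at 5 mg/kg fell from 3515 to 1234 and 954. In the values as deposited, where the median of all probe sets shifted by 0.19 at 5 mg/kg, 0.37 at 20 mg/kg and 0.41 between 20 and 200 mg/kg, 2, 26 and 30 Rab genes passed, every 1 of them higher (4.26%, 55.3% and 63.8%, against 3.34%, 38.3% and 45.6% of all genes), and 23 in the F test (48.9%, against 30.0%); of the other probe sets 21 passed at 20 mg/kg, 3 at 50 mg/kg, 23 between 20 and 200 mg/kg and 22 in the F test (67.7%, 9.68%, 74.2% and 71.0%, against 46.5%, 1.30%, 53.6% and 42.4% of all such probe sets). With arrays centred on their medians, the gene count was 1 at 5 mg/kg (higher), 3 at 20 mg/kg (all higher; 6.38%, against 5.57% of all genes) and 0 in the F test, and 3 other probe sets passed at 50 mg/kg (9.68%, against 1.94%). With the mean of a gene's probe sets, 5, 8 and 1 Rab genes passed at 5, 20 and 50 mg/kg, 1 between 20 and 200 mg/kg and 6 in the F test (10.6%, 17.0%, 2.13%, 2.13% and 12.8%, against 4.29%, 6.68%, 0.461%, 0.823% and 4.57% of all genes). Leaving out the lowest 60% gave 2 genes at 5 mg/kg (5.00%, against 4.19%). With no filter 3 other probe sets and 2 pairs passed at 50 mg/kg, and 7 pairs in the F test. With only the arrays compared, 0 genes passed at 20 mg/kg, and 2 other probe sets and 2 pairs at 50 mg/kg. Leaving out each array in turn gave 0 to 4 genes at 5 mg/kg, 0 to 2 at 20 mg/kg and 1 to 2 in the F test; 6 to 11, 7 to 12 and 1 to 7 other probe sets at 5, 20 and 50 mg/kg, 1 to 6 between 20 and 200 mg/kg and 8 to 12 in the F test; and 6 to 10, 8 to 12 and 2 to 7 pairs, 3 to 6 between 20 and 200 mg/kg and 7 to 12 in the F test. Every count at 200 and 500 mg/kg stayed at 0 in these refits. The counts with no filter, with only the arrays compared and with each array left out stand here without the share of all features. They show how the Rab counts moved, not how they stood against the whole array. The 5 and 20 mg/kg calls of the other probe sets of Rab5a, Rab3a, Rab11b, Rab6a, of Rab5b 1393288_at and of Rab1b 1382946_a_at passed under each alternative run on single probe sets except the covariate; the mean of a gene's probe sets, which replaces them, passed at 5 mg/kg for Rab3a, Rab5a, Rab11b and Rab1b but not for Rab6a or Rab5b. Directions turned for Rab5a, with 0.30 at 5 mg/kg and 0.49 at 20 mg/kg as the mean of its probe sets, and for Rab7a as deposited, with 0.39 at 20 mg/kg and 0.38 between 20 and 200 mg/kg. They also turned with the covariate at 5 mg/kg for Rab6a 1371103_at, with -0.066 in 24 arrays and -0.075 in 23, and for Rab1b 1382946_a_at, with -0.064 and -0.13, and in 23 arrays at 20 mg/kg with -0.039. The cause was not tested. No paired analysis was possible because the labels number each animal once and the replicate numbers only name arrays.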
